A study of Rattus norvegicus with 18 samples.

Results

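The genes described are the constitutive subunits of the proteasome, taken as every probe set of the array whose annotation gives a single gene symbol made of Psma, Psmb, Psmc or Psmd and a number, without the inducible subunits Psmb8, Psmb9 and Psmb10. The rule found 30 genes of the 10412 genes on the array that are named by a single-gene probe set, and used no measured value except that, of a gene's probe sets, the brightest on average was kept. Psmd11 was the only gene with more than 1 such probe set, so that 31 probe sets belonged to the 30 genes. All 30 passed the filter on dim probe sets. Psmb6 appeared on a probe set that names 2 genes and has no value here, and Psmc6, Psmd12 and Psmd14 were not analysed here.

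The study measured total RNA of the oculomotor nucleus, a midbrain nucleus whose motor neurons drive most of the eye muscles, and of the spinal cord of F344BN rats, a hybrid used in research on ageing, at 6, 18 and 30 months of age. Each of the 6 groups had 3 arrays (Affymetrix Rat Genome RA230), 18 in all, and each RNA sample combined tissue of 4 animals, so that the spread between arrays is a spread between pools, and nothing beyond the replicate number ties a pool to particular animals. The submitters' design text speaks of 4 replicates per group, where the labels give 3. No treatment or genotype differed between the groups, and the stated purpose was to compare each older age with 6 months. The 6-month arrays are therefore shared by both comparisons within a tissue.

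The 26S proteasome degrades proteins tagged with ubiquitin. Its 20S core is a barrel: outer rings of alpha subunits gate the entrance, and inner rings of beta subunits hold the active sites, which belong to Psmb5 (chymotrypsin-like), Psmb6 (caspase-like) and Psmb7 (trypsin-like). The 19S regulator caps the core. Its base carries a ring of ATPases (the Psmc genes), which unfold the substrate, together with the scaffold subunits Psmd1 and Psmd2 and the ubiquitin receptor Psmd4, and its lid removes ubiquitin. Neurons, which do not divide, depend on this machinery for the turnover of synaptic and damaged proteins. The measured genes were 7 alpha subunits (Psma1 to Psma7), 2 catalytic and 4 non-catalytic beta subunits, 5 base ATPases (Psmc1 to Psmc5), 3 other base subunits, 6 lid subunits (Psmd3, Psmd6, Psmd7, Psmd8, Psmd11 and Psmd13) and 3 chaperones that assemble the base (Psmd5, Psmd9 and Psmd10, the last known as gankyrin).

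The promoters shown here belong to the 4 genes whose signal differed between the tissues, the one kind of comparison in which any of the 30 passed the test. They are the 250 bases before the annotated start in RefSeq, build GRCr8, read 5′ to 3′ along the gene. Capitals mark 2 of the motifs searched on both strands: TGACNNNGC, the core of the antioxidant response element at which Nfe2l1 and Nfe2l2 bind with small Maf proteins to drive proteasome genes, and CCAAT (read as ATTGG on the other strand), the box bound by NF-Y. The Psmb5 promoter lies at chr15:32047380-32047629 (minus strand), that of Psmb2 at chr5:144254808-144255057 (plus strand), that of Psma1 at chr1:177887858-177888107 (minus strand) and that of Psmc5 at chr10:91687303-91687552 (plus strand).

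Psmb5: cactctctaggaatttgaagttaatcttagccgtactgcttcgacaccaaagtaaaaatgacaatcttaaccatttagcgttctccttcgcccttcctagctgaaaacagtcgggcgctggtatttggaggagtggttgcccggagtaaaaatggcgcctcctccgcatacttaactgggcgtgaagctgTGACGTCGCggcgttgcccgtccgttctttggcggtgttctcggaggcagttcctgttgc
Psmb2: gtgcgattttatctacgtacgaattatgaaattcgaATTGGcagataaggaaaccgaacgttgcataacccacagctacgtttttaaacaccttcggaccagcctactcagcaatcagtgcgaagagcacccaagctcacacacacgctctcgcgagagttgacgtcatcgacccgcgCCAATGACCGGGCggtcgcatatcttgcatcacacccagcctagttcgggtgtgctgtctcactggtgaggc
Psma1: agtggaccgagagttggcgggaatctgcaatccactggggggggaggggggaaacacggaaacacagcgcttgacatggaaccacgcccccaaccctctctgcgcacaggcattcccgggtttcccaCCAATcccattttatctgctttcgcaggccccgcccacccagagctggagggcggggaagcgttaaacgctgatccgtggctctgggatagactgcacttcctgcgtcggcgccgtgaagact
Psmc5: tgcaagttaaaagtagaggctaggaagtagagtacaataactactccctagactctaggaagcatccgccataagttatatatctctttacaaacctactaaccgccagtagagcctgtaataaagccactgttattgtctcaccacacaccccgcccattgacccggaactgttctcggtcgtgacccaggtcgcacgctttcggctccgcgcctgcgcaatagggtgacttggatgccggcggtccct

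Psmb5 holds 1 response element core, from -60 to -52 relative to the start. Psmb2 holds one from -68 to -60, whose first base is the last of a CCAAT box, and a further CCAAT box on the opposite strand. Psma1 holds 1 CCAAT box and Psmc5 none of the motifs. Of the 30 genes, 28 matched a RefSeq promoter (Psma7 and Psmd6 did not). The response element core was present in 5 of the 28 (17.9%; Psma3, Psmb2, Psmb5, Psmd1 and Psmd9), against 10.1% of all 33469 promoters and 12.6% of those of genes on the array. A CCAAT box was present in 16 of the 28 (57.1%), against 34.0% of all promoters and 34.9% of those of genes on the array. CACGTG, the E-box, was present in 4 (14.3%), against 5.6% and 7.7%. The overlap in Psmb2 was the only one between motifs in these promoters. These matches are descriptions of the letters in this window.

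Values are Affymetrix signals, a scaled intensity, analysed as log2 after setting signals under 66.4 to that floor, with limma fitted to the 9482 probe sets kept. A gene is called where the p-value adjusted by the Benjamini-Hochberg method over all 9482 is under 0.05. The arrays had like scale, with a median signal of 252.1 to 275.3 and 18.0% to 21.0% of probe sets at or under the floor. The labelled tissues were compared with markers. The 11 general neuronal genes summed to 52019 to 59800 signal units on nucleus arrays and 52135 to 67859 on cord arrays. Chat, the acetylcholine-synthesising enzyme of motor neurons, was at 96.8 to 191 in the nucleus and 316 to 438 in the cord, and Isl1, a motor neuron transcription factor, was at the floor on 7 of 9 nucleus and 5 of 9 cord arrays. Th, the dopamine-synthesising enzyme, was at 1882 to 2893 in the nucleus samples and 55.4 to 138 in the cord. As these are bulk samples, fewer cells of a type and less RNA per cell cannot be told apart.

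The proteasome genes were bright and reproducible. Their median mean signal was 1441, against 541 over all probe sets kept, and the log2 SD within groups had a median of 0.14, against 0.18. It was under the median of all probe sets for 24 of the 30. Psma5, an alpha subunit, varied least (SD 0.07). Its 9 nucleus arrays read 1412, 1537 and 1517 at 6 months, 1324, 1359 and 1468 at 18 months, then 1421, 1339 and 1537 at 30 months. Its cord arrays lay between 1326 and 1438, so that the tissues overlapped. Psmc3, a base ATPase, varied most (SD 0.24), with 952 to 1627 in the nucleus and 1082 to 1657 in the cord. The heat map of signal by array shows no block of colour that follows age.

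**Figure D1:**
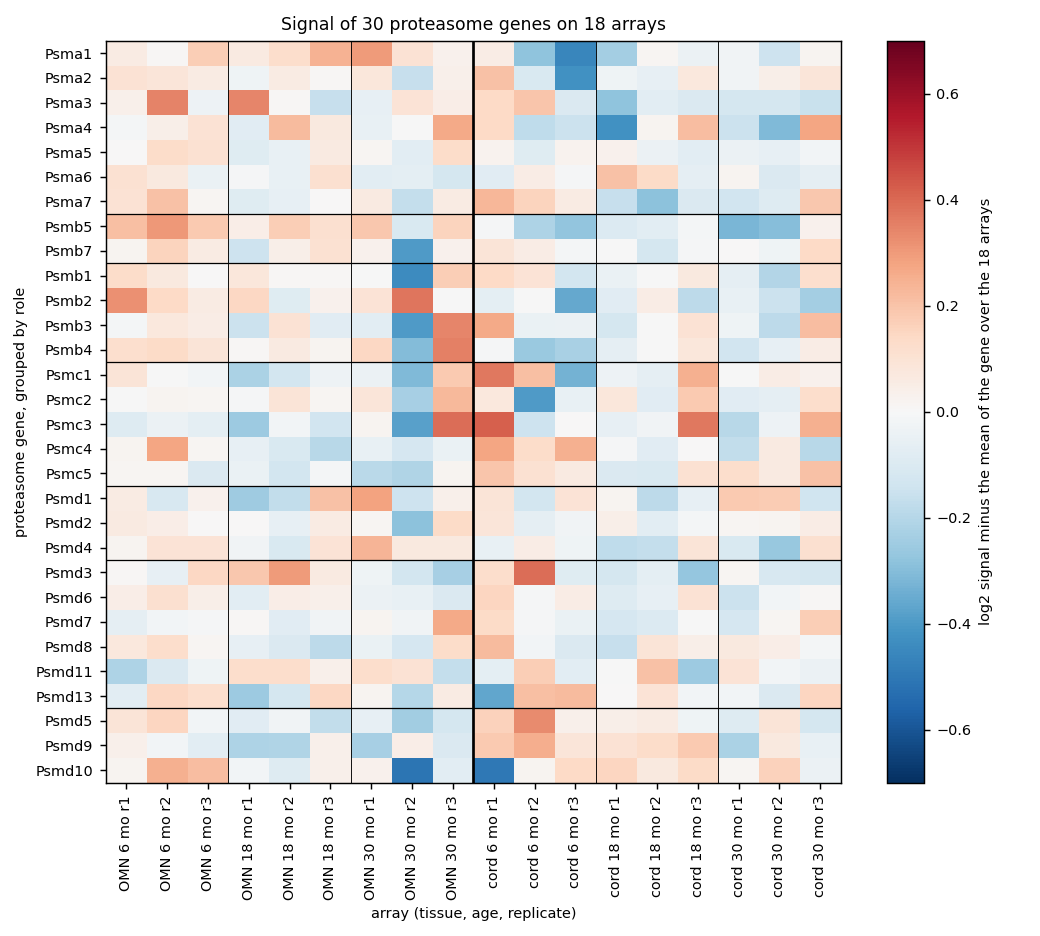
Log2 signal of each of the 30 proteasome genes (rows, grouped by role) on each of the 18 arrays (columns), as the difference from the gene's mean over all arrays, from blue (lower) to red (higher). The nucleus column of the 30-month replicate 2 is blue for most genes, and the rows of Psmb5, Psmb2 and Psma1 are redder on nucleus arrays than on cord arrays.

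No proteasome gene was called between any 2 ages in either tissue. In the nucleus, 0 of 30 were called at 18 against 6 months, where 0% of all probe sets were called, 0 of 30 at 30 against 6 months (0.211% of all) and 0 of 30 at 30 against 18 months (0.0105%). In the cord, the counts were 0 of 30 at 18 against 6 months (0.728% of all), 0 of 30 at 30 against 6 months (0.221%) and 0 of 30 at 30 against 18 months (0.0105%). At an unadjusted p under 0.05 the same comparisons held 1, 2 and 1 of the 30 in the nucleus (3.39%, 8.12% and 4.71% of all probe sets) and 3, 2 and 0 in the cord (10.3%, 10.7% and 2.14%). A p that misses the threshold does not show equal levels, so the intervals matter more. The median 95% interval of a proteasome gene reached 0.24 to either side of its estimate on the log2 scale. It lay wholly within a 1.5-fold change for 30 of the 30 genes in each age comparison except the nucleus at 30 against 6 months, where Psmd10 was the exception and 29 did. The study's own difference calls cannot be made from signals alone, so only the part of its rule that signals allow was applied. It asks for arrays that do not overlap and a mean change above 1.70-fold. By this part of the rule, 0 of the 30 passed in each of the 6 comparisons. Of all probe sets, 0.0527%, 0.274% and 0.0844% passed it in the nucleus (18 against 6, 30 against 6 and 30 against 18 months) and 0.559%, 0.359% and 0.0633% in the cord. The largest mean fold was 1.26, of Psmd10 in the nucleus and of Psma7 in the cord.

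Most differences in the older nucleus lay just below 0. At 18 against 6 months, 25 of 30 were below 0 (50.9% of all probe sets), with a median of -0.07 on the log2 scale, against -0.00 over all. Proteasome genes deviated together on single arrays, so such counts are not of independent genes. Between arrays of a group, the median deviation of the proteasome genes had an SD of 0.06. At 30 against 6 months, 22 of 30 were below 0 (49.8% of all), with a median of -0.08. Without replicate 2 of the 30-month nucleus that median was -0.02, with 17 of 30 below 0. The ratio of 3′ to 5′ signal of the hexokinase control, a measure of RNA integrity and labelling, moved in the same comparison, from 1.57 to 1.64 at 6 months to 1.75 to 1.89 at 18 and 1.76 to 1.91 at 30 months. For the GAPDH and beta-actin controls the ranges overlapped between the ages. In the same order of age, GAPDH was 0.99 to 1.02, 1.01 to 1.02 and 1.00 to 1.09. Beta-actin was 1.25 to 1.36, 1.22 to 1.49 and 1.31 to 1.54. The summed signal of 7 meningeal and matrix genes was 2513 to 2780.4 at 6 months, 1821 to 1992 at 18 and 1249.6 to 1593 at 30 months in the nucleus (0 of 7 called at 18 and 3 of 7 called lower at 30 against 6 months). That of 8 microglial genes was 5779 to 6752, 7616 to 9066 and 8016 to 10255 (0 of 7 kept genes called at either age). No marker of the other lists was called in the nucleus with age. The part of the control ratios, the meningeal and the microglial genes in these medians was not tested. At 30 against 18 months 16 of 30 were below 0 (48.8% of all). In the cord the medians were -0.03 (19 of 30 below 0), -0.02 (20) and -0.01 (16) for 18 against 6, 30 against 6 and 30 against 18 months. Of all probe sets, 50.5%, 49.6% and 50.4% were below 0 in these comparisons.

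**Figure D2:**
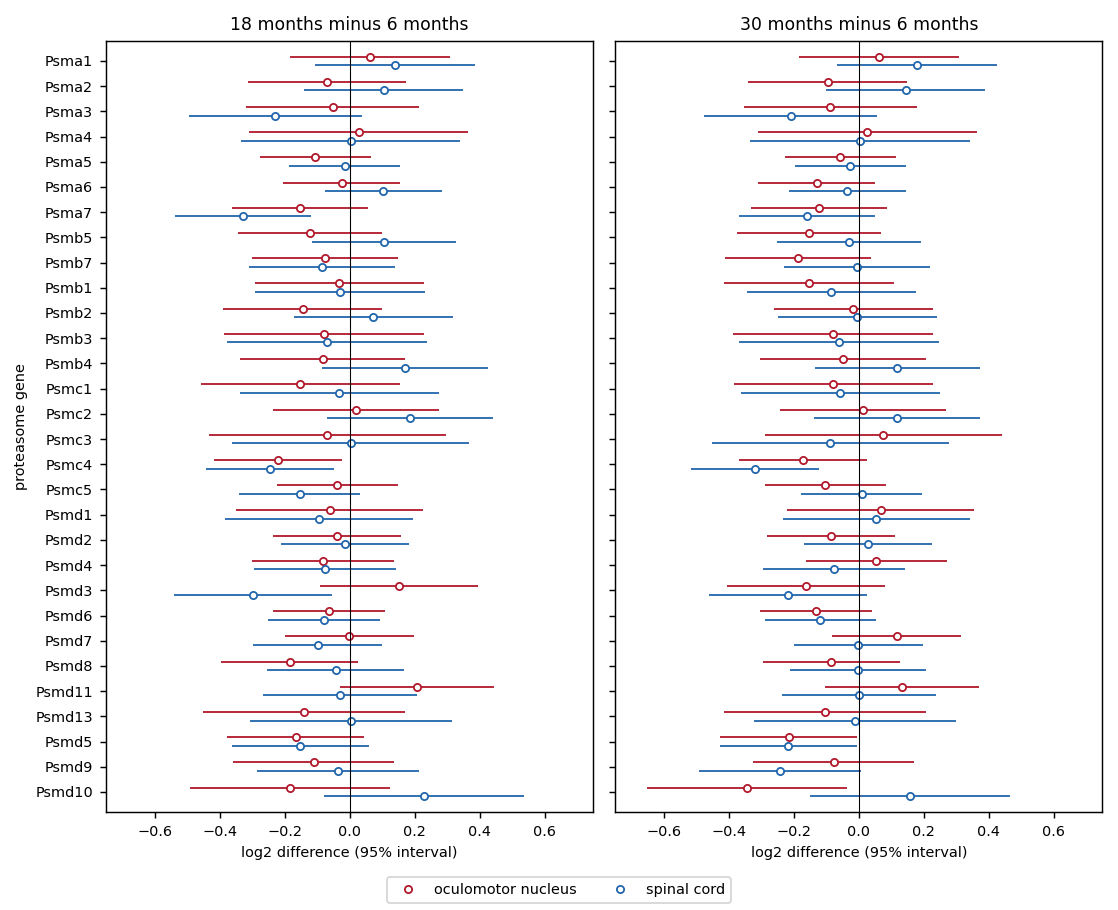
Log2 difference of each proteasome gene at 18 and at 30 months from 6 months (points) with its 95% interval (lines), for the nucleus (red) and the cord (blue), 3 arrays per group. The points cluster near 0, and the intervals of Psmc4 lie below 0 in 3 of the 4 comparisons; none of the differences was called.

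Among the alpha subunits, which form the gated outer ring, the 7 differences of the nucleus ranged from -0.15 to 0.06 at 18 months and from -0.13 to 0.06 at 30 months. Psma7 gave the largest difference of the 30 genes in the cord at 18 against 6 months. Its 6-month cord arrays read 1777, 1687 and 1572, its 18-month arrays 1356, 1241 and 1413, and its 30-month arrays 1381, 1421 and 1725. The 6- and 18-month arrays did not overlap, while the third 30-month array lay within the 6-month range. The log2 difference at 18 months was -0.33 (95% interval -0.54 to -0.12; limma adjusted p = 0.173), with means of 1337 ± 87.6 and 1679 ± 102 (SD, n = 3). At 30 against 18 months Psma7 gave 0.17 (adjusted p = 1), and 0.07 without the third 30-month array. Psma1, Psma4 and the ATPase Psmc2 were the 3 genes with a difference above 0 in all 4 comparisons with 6 months.

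No beta subunit was called with age. Psmb5 and Psmb7, the catalytic subunits on the array, gave -0.12 and -0.08 in the 18-month nucleus and -0.15 and -0.19 in the 30-month nucleus. Psmb7 read 3294, 3617 and 3383 on the 6-month nucleus arrays, 2938, 3349 and 3502 at 18 months, then 3320, 2471 and 3323 at 30 months. The groups overlapped, and the 30-month array that read 2471 was the lowest of the nucleus. The log2 difference at 30 months was -0.19 (95% interval -0.41 to 0.04; limma adjusted p = 0.682). Its cord arrays read 3457, 3364 and 3220.1 at 6 months, 3244, 2986 and 3234 at 18 months, then 3251, 3179 and 3579.6 at 30 months, also with overlap. In the cord the catalytic pair differed from 6 months by 0.11 and -0.09 at 18 months and by -0.03 and -0.01 at 30 months. The 4 non-catalytic subunits Psmb1 to Psmb4 were all below 0 in the nucleus at both ages, between -0.15 and -0.02. In the cord they lay on both sides of 0, from -0.08 to 0.17, with Psmb4 at 0.17 at 18 and 0.12 at 30 months.

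The base ATPase Psmc4 was the gene named most often. In the nucleus it read 1484, 1777 and 1478 at 6 months, 1409, 1364 and 1282 at 18 months, then 1414, 1353 and 1422 at 30 months. In the cord it read 1777, 1601 and 1741 at 6 months, 1457, 1386 and 1472 at 18 months, then 1301, 1533 and 1280 at 30 months. In both tissues every 6-month array was above every older array. The log2 differences from 6 months were -0.22 and -0.17 in the nucleus and -0.25 and -0.32 in the cord at 18 and 30 months, and none was called (limma adjusted p of 1, 0.655, 0.34 and 0.183). Without replicate 2 of the 6-month nucleus, the array that read 1777, the nucleus differences were -0.133 and -0.085. Psmc4 was the 1 proteasome gene lower without overlap in all 4 comparisons, which share their 6-month arrays, as were 21 of the 9482 probe sets, with 45 higher in all 4. Arrays did not overlap for 8 of 30 genes in the nucleus at 18 against 6 months (1 higher, 7 lower; 14.5% of all probe sets) and for 4 at 30 months (all lower; 13.9%). In the cord this held for 2 genes at 18 months (13.6% of all) and 3 at 30 months (13.1%), all lower. At 30 against 18 months it held for 2 genes in the nucleus (8.81% of all) and 1 in the cord (6.46%), again lower.

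The other ATPases were not called with age either. At 18 against 6 months Psmc1 gave -0.15 in the nucleus, without overlap, and in the cord Psmc2 gave 0.19 and Psmc5 -0.15. In the nucleus at both ages and in the cord at 30 months, Psmc1, Psmc2, Psmc3 and Psmc5 lay between -0.15 and 0.12. At 30 against 18 months in the cord, Psmc5 gave 0.16 (limma adjusted p = 1). Psmd1 and Psmd2, the scaffold of the base, and Psmd4, the ubiquitin receptor, lay between -0.08 and -0.04 in the nucleus and between -0.09 and -0.02 in the cord at 18 months. Psmd4 gave 0.14 in the nucleus at 30 against 18 months (limma adjusted p = 0.976), and 0.09 without replicate 2 at 18 or 0.08 without replicate 1 at 30 months.

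In the lid, Psmd3 lay on opposite sides of 0 in the tissues at 18 months. Its nucleus arrays read 687, 658 and 756 at 6 months, 781, 841 and 715 at 18 months, then 669, 626 and 582 at 30 months. Its cord arrays read 744, 896 and 646 at 6 months, 628, 653 and 567 at 18 months, then 689, 632 and 629 at 30 months. In the nucleus the 18-month arrays overlapped with the 6-month arrays and lay above all 30-month arrays (log2 difference -0.31 from 18 to 30 months, 95% interval -0.56 to -0.07; limma adjusted p = 0.976). In the cord the 6- and 18-month arrays overlapped by 1 array (-0.30, and -0.17 without replicate 2 at 6 months; adjusted p = 0.354). The interaction, which tests whether the change from 6 to 18 months differed between the tissues, was 0.45 for Psmd3 (95% interval 0.10 to 0.79; limma adjusted p = 0.911). Psmd8, a further lid subunit, was at 1046 ± 40.7 in the 6-month and 920 ± 38.9 in the 18-month nucleus (SD, n = 3), a log2 difference of -0.18 without overlap (adjusted p = 1). Psmd7, a lid scaffold subunit, gave 0.12 in the nucleus at 30 against 18 months (adjusted p = 0.976), and 0.03 without replicate 3 at 30 months. The probe sets of Psmd11 disagreed. The brighter gave 0.21 in the nucleus at 18 months and the other -0.02 (adjusted p of 1 for both).

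The chaperones that assemble the base were below 0 in the nucleus at both ages, with a median of -0.17 at 18 and -0.22 at 30 months. In the cord 2 of the 3 were below 0 at each age, with a median of -0.04 at 18 and -0.22 at 30 months. Psmd10, which binds the ATPase Psmc4 during assembly, read 912, 1070 and 1046 at 6 months, 889, 848 and 924 at 18 months, then 921, 633 and 858 at 30 months in the nucleus. In the cord it read 637, 915 and 992, then 1000, 944 and 988, then 911, 1007 and 876. The 6- and 30-month nucleus arrays overlapped, and 1 low array stood in each of the 30-month nucleus and the 6-month cord. The nucleus difference at 30 months was -0.34 (95% interval -0.65 to -0.03; limma adjusted p = 0.558), and -0.18 without replicate 2 of that group. The interaction with tissue was -0.50 for 30 against 6 months (95% interval -0.94 to -0.07; adjusted p = 0.905) and -0.41 for 18 against 6 months (adjusted p = 0.983). Without replicate 1 of the 6-month cord, the low array, these were -0.31 and -0.22.

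Psmd5 gave the same difference at 30 months in both tissues. In the nucleus it read 727, 759 and 676 at 6 months and 657, 578 and 628 at 30 months, without overlap. In the cord it read 763, 862 and 702 at 6 months and 643, 729 and 628 at 30 months, with overlap. Both log2 differences were -0.22 (limma adjusted p of 0.6 and 0.455), and that of the cord was -0.14 without replicate 2 at 6 months. Psmd9, the dimmest of the 30 with a mean signal of 341, gave -0.24 in the cord at 30 months (adjusted p = 0.48), with arrays of 386, 405 and 360 at 6 months and 291, 357 and 327 at 30 months that did not overlap. At 30 against 18 months in the cord it gave -0.21, without overlap (adjusted p = 1), and -0.13 without replicate 1 at 30 months.

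The change with age did not differ between the tissues for any proteasome gene by the interaction test: 0 of 30 were called for 18 against 6 months and 0 of 30 for 30 against 6 months, where 0% of all probe sets were called in each. At an unadjusted p under 0.05 each held 1 of the 30 (5.07% and 5.47% of all). The intervals are wider here, with a median half-width of 0.34 before adjustment. Differences in response beyond that size were not called either, such as -0.50 of Psmd10 for 30 against 6 months (limma adjusted p = 0.905). Psmb5 gave -0.23 for 18 months, and Psma2 and Psmb7 gave -0.24 and -0.18 for 30 months (adjusted p of 0.983, 0.905 and 0.941). The value of Psma2 was -0.40 without replicate 1 and -0.08 without replicate 3 of the 6-month cord, and that of Psmb7 -0.04 without replicate 2 of the 30-month nucleus.

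The tissues differed in 4 of the 30 genes when the nucleus was compared with the cord over all ages, 3 higher and 1 lower in the nucleus. Of all probe sets, 47.2% were called (23.6% higher and 23.6% lower). The median size of the difference was 0.05 on the log2 scale, against 0.19 over all probe sets, and 15 of 30 were above 0. The 4 genes are named after their values were seen, because the naming rule required arrays without overlap, which held for 0 of 30 (14.2% of all).

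Psmb5, the chymotrypsin-like active site and the target of proteasome inhibitor drugs, was higher in the nucleus. The nucleus arrays read 3316, 3530.2 and 3246 at 6 months, 2958, 3229 and 3094 at 18 months, then 3263, 2654 and 3193 at 30 months. The cord arrays read 2850.4, 2462 and 2362 at 6 months, 2677, 2722 and 2839 at 18 months, then 2290.3, 2327 and 2917 at 30 months. All nucleus arrays but 1, the second at 30 months, were above the highest cord array. The means were 3165 ± 247 and 2605 ± 247 (SD over the 9 arrays of 3 ages), a log2 difference of 0.28 or 1.22-fold (95% interval 0.15 to 0.41; limma adjusted p = 0.000823). By age the difference was 0.40 at 6, 0.17 at 18 and 0.28 at 30 months. At 6 months the hexokinase 3′ to 5′ ratio was 1.57 to 1.64 in the nucleus and 1.93 to 2.12 in the cord, without overlap. The GAPDH ratio was lower in the nucleus at 18 months, also without overlap. All other hexokinase, GAPDH and beta-actin ranges overlapped between the tissues at the same age. The part of these ratios in the differences between the tissues was not tested. Psmb7, the other catalytic subunit, was at 3244 ± 343 and 3279 ± 171 (-0.02, 95% interval -0.15 to 0.11).

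Psma1 and Psmb2, an alpha and a non-catalytic beta subunit, were higher in the nucleus by nearly the same amount. Psma1 read 1262, 1221 and 1366 at 6 months, 1269, 1322 and 1433 at 18 months, then 1493, 1298 and 1236 at 30 months in the nucleus. In the cord it read 1258, 997 and 882 at 6 months, 1029, 1224 and 1178 at 18 months, then 1191, 1097 and 1229 at 30 months. The tissues overlapped at 6 months and not at 18 or 30 months (log2 difference 0.24, 95% interval 0.10 to 0.39; limma adjusted p = 0.00603). Psmb2 read 1647, 1453 and 1373 at 6 months, 1456, 1244 and 1344 at 18 months, then 1411, 1707 and 1317 at 30 months in the nucleus. Its cord arrays read 1258, 1313 and 1030 at 6 months, 1248, 1366 and 1162 at 18 months, then 1269, 1189 and 1116 at 30 months. The tissues overlapped at 18 months alone (0.24, 95% interval 0.10 to 0.38; adjusted p = 0.00648).

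Psmc5, an ATPase of the base, was lower in the nucleus. It read 3036, 3034 and 2809 at 6 months, 2911, 2752 and 2987 at 18 months, then 2640.3, 2598 and 3047 at 30 months there. The cord arrays read 3445, 3239.6 and 3139 at 6 months, 2809.7, 2792 and 3244 at 18 months, then 3278, 3141 and 3471 at 30 months. The tissues overlapped at 18 months alone, and the difference was -0.14 (95% interval -0.25 to -0.04; limma adjusted p = 0.0268), with means of 2868 ± 175 and 3173 ± 240.5 (SD over 9 arrays). The call was lost without any 1 of 5 arrays (adjusted p of 0.0503 to 0.0605; replicate 3 at 6, 2 at 18 and 1 at 30 months in the nucleus, replicate 3 at 18 and at 30 months in the cord), and with each array centred on its median (adjusted p = 0.0989). Psmd9 lay beyond it at -0.16 and was not called (adjusted p = 0.059). The remaining 25 genes ranged from -0.13 to 0.14.

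**Figure D3:**
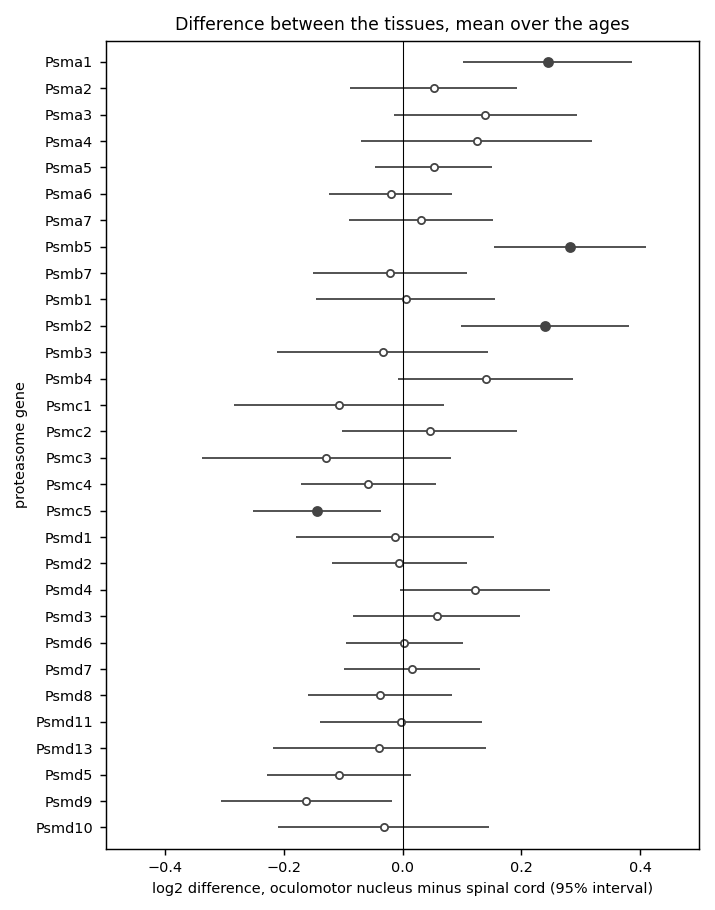
Log2 difference of each proteasome gene between the nucleus and the cord, as the mean over the 3 ages (point) with its 95% interval (line), 9 arrays per tissue. Filled points mark the 4 called genes, Psmb5, Psma1, Psmb2 and Psmc5; the other genes lie between -0.16 and 0.14.

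**Figure D4:**
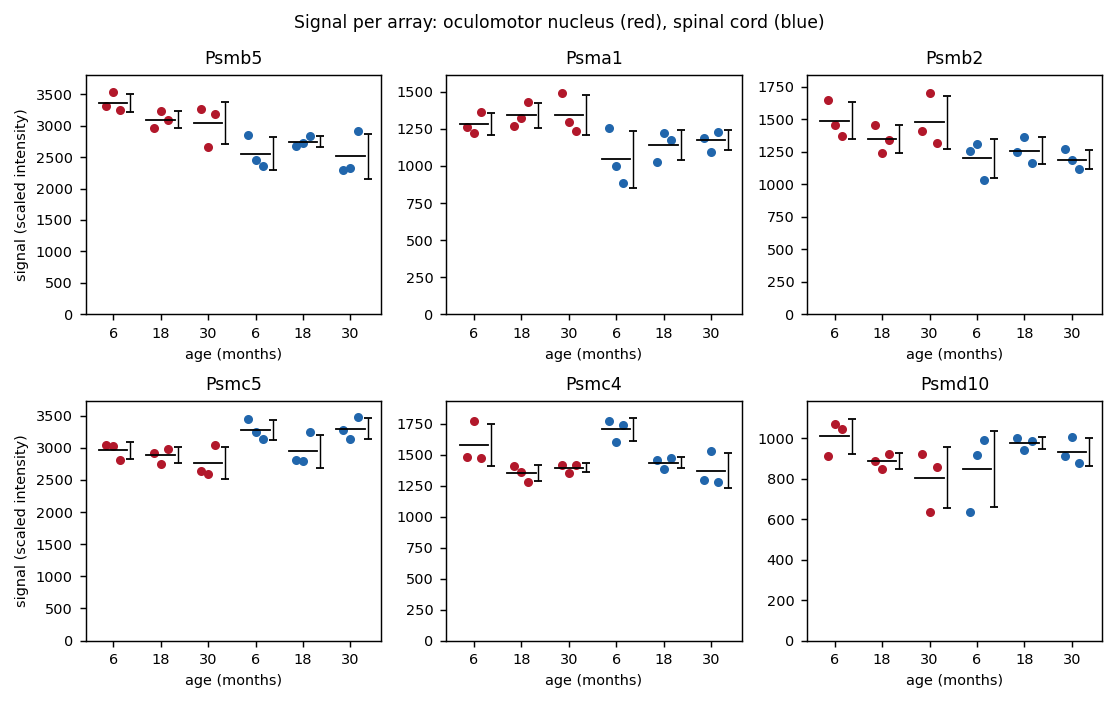
Signal of 6 proteasome genes on each array (points), with the group mean (long bar) and SD (whisker), for the nucleus (red) and the cord (blue) at 6, 18 and 30 months, 3 arrays per group. Psmb5 nucleus arrays lie above the cord arrays except for 1 at 30 months, and for Psmc4 the 6-month arrays are the highest of each tissue.

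Markers of several cell types moved with tissue. Of the marker genes kept, 5 of 5 motor neuron and cholinergic genes, 7 of 7 microglial, 7 of 7 meningeal and matrix, 2 of 2 erythroid, 3 of 3 skeletal muscle, 4 of 6 myelin and 4 of 7 astrocyte genes were called lower in the nucleus, where 23.6% of all probe sets were. Called higher were 4 of 4 genes of midbrain dopamine neurons, 2 of 2 of choroid plexus and 1 of 7 astrocyte genes, against 23.6% of all. Of 11 general neuronal genes 4 were higher and 3 lower. The filter used the mean over both tissues, so a gene high in 1 tissue alone could pass through that tissue. The shares of called markers were thus partly set by the filter. Calca read 46.6 to 79.6 in the nucleus and 618 to 1064 in the cord, and Th 1882 to 2893 and 55.4 to 138. Of 7 skeletal muscle genes on the array, 3 were kept. The summed microglial signal (8 genes) was 5779 to 10255 in the nucleus and 7876 to 15510 in the cord, and that of 7 skeletal muscle genes 585 to 1176 and 709 to 9164. Of the motor neuron genes, Calca and Isl1 were each at the floor on 7 nucleus arrays, and of the muscle genes Myh4 and Myh2 on all 9. Signals at or under the floor still add to the sums, so a sum above 0 does not show that a list was expressed. None of these lists was at 0 in either tissue. Their part in the proteasome differences was not tested; with the 3 cord arrays of highest muscle marker level left out, Psmb5, Psma1 and Psmb2 were still called and Psmc5 was not (adjusted p = 0.0869).

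Proteasome genes deviated together on single arrays. On the 30-month nucleus replicate 2, 23 of 30 lay below their group mean (46.3% of all probe sets), and the median deviation was -0.11 on the log2 scale. On replicate 3 of that group the median was 0.09. Replicates 1 and 3 of the 6-month cord lay at 0.08 and -0.08, with 23 of 30 above and 23 of 30 below the mean. Of all probe sets, 50.1% and 49.4% lay below their group mean on these 2 arrays. The median of all probe sets stayed between -0.01 and 0.02 on every array. In the first principal component of all probe sets, 27.1% of the variance after group means, 4 arrays stood apart (30-month nucleus replicate 3, 6-month cord replicate 1, 18-month cord replicate 3 and 30-month cord replicate 3). All 4 had a positive proteasome median, and the lowest, replicate 2 of the 30-month nucleus, was at the opposite end of that component. With these 4 arrays as a block, 7 rather than 4 genes were called between the tissues (6 higher, 1 lower). Without the block 47.2% of all probe sets were called, and the share with it is not given here. Whether the rise to 7 is particular to proteasome genes was not tested.

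**Figure D5:**
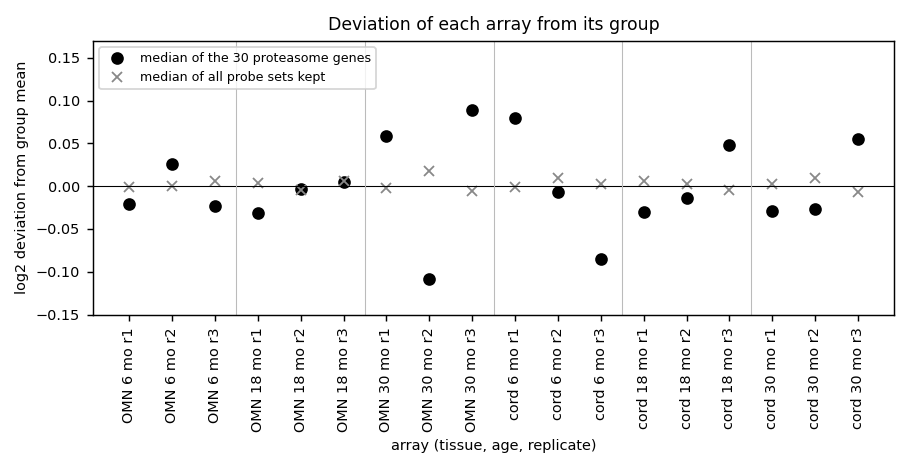
Median log2 deviation of the 30 proteasome genes from their group mean on each of the 18 arrays (filled circles), beside the median over all 9482 probe sets kept (crosses). The circles run from -0.11 to 0.09 and the crosses from -0.01 to 0.02.

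Genes that act beside the constitutive proteasome were examined as 7 lists. Of the inducible immunoproteasome subunits, which replace the catalytic ones in immune cells, 2 of 3 passed the filter. Psmb8 rose in the cord from 217, 191 and 173 at 6 months to 326, 363 and 320.3 at 18 months, without overlap (log2 difference 0.80, 95% interval 0.44 to 1.16; limma adjusted p = 0.0331), where the 30 constitutive genes had a median of -0.03. Microglial markers moved in the same comparison, from a summed 7876 to 9122 at 6 months to 11393 to 11956 at 18 months, and their part in the difference was not tested. The call was lost without any 1 of 4 arrays (limma adjusted p of 0.0941 to 0.19 for 6-month cord replicates 2 and 3 and 18-month cord replicates 1 and 2). It was also lost when each tissue was fitted separately (0.165) and with no filter on dim probe sets (0.059). With the 3 cord arrays of highest muscle marker level left out, which leaves 1 cord array at 6 months, the Psmb8 difference was 0.90. In the nucleus at 30 against 6 months Psmb8 gave 0.43 (adjusted p = 0.523). Of the 4 activators and inhibitors kept of 5, none was called with age. Psme1, a subunit of the 11S activator, gave 0.58 in the cord at 18 months (adjusted p = 0.0522). No other gene of the 7 lists was called in a comparison between ages.

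Between the tissues, 11 of the 24 genes kept of these lists were called, or 45.8%, where 47.2% of all probe sets were. Both immunoproteasome subunits kept were lower in the nucleus (Psmb8 -0.63, limma adjusted p = 3.05e-05; Psmb10 -0.42, adjusted p = 0.000988). Of the activators and inhibitor, 2 of 4 were lower, the nuclear activator Psme4 (-0.31, adjusted p = 0.00287) and the 11S subunit Psme2 (-0.17, adjusted p = 0.0441). Of the 5 chaperones that assemble the core, 1 was lower, Psmg2 (-0.17, adjusted p = 0.0448). The ubiquitin-activating enzyme Uba1, the 1 gene of its list of 5 on a single-gene probe set, was higher (0.15, adjusted p = 0.032). The calls of Psme2, Psmg2 and Uba1 depended on single arrays. That of Psme2 was lost without any 1 of 13 of the 18 arrays (adjusted p of 0.0529 to 0.0962), all but replicate 3 at 6 and 18 months and replicates 1 and 3 at 30 months in the nucleus and replicate 3 at 18 months in the cord. That of Psmg2 was lost without any 1 of 12 (0.0557 to 0.098), all but replicate 2 at 6 and 18 months and replicate 1 at 30 months in the nucleus and replicate 1 at 6 and replicate 3 at 18 and 30 months in the cord. That of Uba1 was lost without any 1 of 7 (0.0501 to 0.0766), in the nucleus replicate 3 at 6 and 18 months and replicate 1 at 30 months, and in the cord replicate 2 at 6, replicates 1 and 3 at 18 and replicate 3 at 30 months. With the 3 cord arrays of highest muscle marker level left out, none of these 3 was called (0.129, 0.088 and 0.109). Of the receptors and deubiquitinases both genes measured were higher, the ubiquitin receptor Adrm1 (0.25, adjusted p = 0.00756) and the small lid subunit Sem1 (0.21, adjusted p = 0.0183), as were 2 of 7 shuttle and segregase genes, Ubqln2 (0.32, adjusted p = 0.00313), which carries ubiquitinated proteins to the proteasome, and Ufd1 (0.21, adjusted p = 0.0077, and 0.0568 with muscle markers as a covariate). Of the regulators of proteasome transcription, Nfe2l2, the antioxidant response factor, was lower in the nucleus (-0.52, adjusted p = 1.39e-05). Nfe2l1, which drives proteasome genes when proteasome activity is short, gave -0.08 and was not called.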

How the data were processed

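Expression was measured in 18 samples on Affymetrix arrays. The authors' deposited table holds 1 signal intensity per probe set and array, made with MAS5 (Affymetrix Microarray Suite 5.0), per the submitters' processing notes and design text; the trimmed mean (2% at each end) was 500.08 to 500.10 on every array. The 57 control probe sets were left out of 15923, signals were raised to the 20th percentile (66.4), log2 was taken, and the 9482 probe sets with a mean above the 40th percentile (log2 7.46) were kept. Linear models with 6 groups were fitted in limma 3.58.1 (R 4.3.3) with a mean-variance trend (12 residual degrees of freedom) and Benjamini-Hochberg adjustment, after tests on simulated data. Groups follow the labels. Of the probe sets, 12789 name 1 gene, 312 several and 2822 none, and 12754 of the single symbols were updated through Entrez IDs.

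The members and lists were chosen with earlier results of these data known. In each age comparison and interaction the text names the 3 genes with the smallest p, and between the tissues called genes without overlap; the catalytic subunits are given throughout, and of each pathway list up to 3 genes with the smallest p. Alternatives covered normalization, floor, filter, probe sets, variance trend, separate fits, a replicate block, arrays standing apart and muscle transcripts. The number of arrays limits the precision.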

Additional observations from a re-analysis of the deposited data

Results flagged for a closer look

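Single arrays stood apart from the other 8 of their tissue in 7 of the 60 combinations of gene and tissue examined, by Dixon's test at its 95% critical value for 9 arrays. Chance gives such a gap in about 1 in 20, and each tissue pools 3 ages. On replicate 2 of the 30-month nucleus, Psmb1 was low at 2331 (nearest array 3156) and Psmd2 low at 1466 (nearest 1719). On replicate 3 of the same group, Psmc3 was high at 1627 (nearest 1254) and Psmd7 high at 1685 (nearest 1421). Psmc4 was high on replicate 2 of the 6-month nucleus at 1777 (nearest 1484). In the cord, Psmc2 was low on replicate 2 at 6 months, at 2269 (nearest 2826), and Psmd10 low on replicate 1 at 6 months, at 637.4 (nearest 875.7).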

How the results depend on the processing

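No proteasome gene was called between ages, or in an interaction with tissue, under any alternative run. The count between the tissues was 3 to 6 without a replicate in turn and 7 with the 4 arrays that stood apart as a block. In the main fit 47.2% of all probe sets were called between the tissues, and the shares in the alternative runs are not given here. Psmb5, Psma1 and Psmb2 kept their call under every alternative run; Psmc5 lost it under 8 of 30, among them muscle markers as a covariate (adjusted p = 0.112). The median interaction for 30 against 6 months was -0.092 with that covariate and -0.105 with the 3 cord arrays of highest muscle marker level left out, which leaves 1 cord array at 6 months, and for 18 against 6 months -0.094 with them left out, against -0.02 in each case; the cause was not tested.

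Same-numbered arrays of a tissue were compared across its ages: of 18 such pairs, 2 had a correlation over 0.1 (range -0.26 to 0.45). Pairs with unlike numbers ranged from -0.40 to 0.36. Nucleus and cord arrays of the same number were not compared, so whether replicate numbers pair the tissues was not tested. With a replicate block within each tissue, 4 proteasome genes were called between the tissues and 0 between ages. Psmb8 in the cord then had a limma adjusted p of 0.105.

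Leaving out 1 array moved the median age difference to between -0.119 and -0.024 in the nucleus at 30 against 6 months and between -0.085 and 0.013 in the cord at 18 against 6 months. With 3 arrays per group, the interval of a typical proteasome gene reached about 0.24 to either side on the log2 scale, before adjustment. That is not the size at which a gene is called. Larger age differences, up to -0.34 of Psmd10 in the nucleus at 30 against 6 months, were not called either.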
